A study of Homo sapiens with 4 samples.

Results

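The BH3-only proteins start the mitochondrial pathway of apoptosis. They were followed here in T47D, a luminal breast cancer cell line of human origin, with and without baicalein, a flavonoid from plants that inhibits lipoxygenases. The 8 genes HRK, BBC3, PMAIP1, BCL2L11, BMF, BID, BAD and BIK were chosen by symbol from the 20515 rows of the deposited count table. All 8 had a row there, and all 8 passed the filter on low counts. The design set 2 libraries of poly(A) RNA from untreated T47D cells (control 1 and 2) against 2 from baicalein-treated T47D cells (baicalein 1 and 2). The sources used here do not give the baicalein dose, the time of exposure or a vehicle. The comparison asks which genes change in expression when these cells receive baicalein.

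Cells decide between survival and mitochondrial apoptosis through the BCL2 protein family. Guardian proteins such as BCL2, BCL2L1 (BCL-XL) and MCL1 hold the pore-forming effectors BAX and BAK1 in check, and BH3-only proteins insert a short helix, the BH3 domain, into a groove of the guardians or, for some members, act on the effectors directly. Some BH3-only genes are known mainly for transcriptional induction by stress, while other members are mainly held inactive as proteins until cleavage or dephosphorylation.

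The family is defined by the BH3 domain, so its coding bases are shown for the 3 genes with the largest rises and the 2 with the largest falls. Each line gives 45 bases of the coding strand from a GENCODE 29 transcript on GRCh38, and the capitals mark the 6 codons of the BH3 core (a leucine codon, 3 codons of any kind, a codon for a small residue and an aspartate codon).
HRK (chr12:116881167-116881211, minus strand): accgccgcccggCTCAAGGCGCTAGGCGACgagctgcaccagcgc
BBC3 (chr19:47226576-47226620, minus strand): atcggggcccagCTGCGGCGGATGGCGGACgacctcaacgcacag
PMAIP1 (chr18:59902661-59902705, plus strand): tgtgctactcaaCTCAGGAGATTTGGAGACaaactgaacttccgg
BID (chr22:17739412-17739456, minus strand): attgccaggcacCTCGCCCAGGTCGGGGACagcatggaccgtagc
BAD (chr11:64271619-64271663, minus strand): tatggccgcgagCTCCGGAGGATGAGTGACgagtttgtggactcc

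Each of these stretches lies within 1 coding exon. Among the 28 pairs of the 8 genes, between 17 (BID and BAD) and 28 (BID and BIK, and also BBC3 and BCL2L11) of the 45 bases were identical, with a median of 21.5. The core was in 1 of 2 annotated coding transcripts of HRK and of PMAIP1, 2 of 4 of BBC3, 7 of 17 of BCL2L11, 4 of 11 of BID, 4 of 6 of BAD, 4 of 9 of BMF and in the single one of BIK. The counts are per gene, so they do not tell transcripts with the BH3 codons from those without.

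Baicalein-treated cells had more RNA from 5 BH3-only genes and less from 3. HRK rose 36.1-fold, BBC3 5.50-fold, PMAIP1 5.39-fold, BMF 1.93-fold and BCL2L11 1.75-fold. BID fell to 0.346 and BAD to 0.577 of the control level. BIK had the smallest fall, to 0.701, and its fall is uncertain, as set out below. All 8 passed the test (the quasi-likelihood test of edgeR, with p-values adjusted by Benjamini-Hochberg over 18369 genes and a threshold of 0.05), in a data set where 75.0% of all tested genes did, 37.4% of them higher and 37.6% lower. A call alone therefore says little here, and the sizes of the changes carry more. HRK, BBC3 and PMAIP1 were called with a rise of at least 2-fold, as were 12.2% of tested genes, and BID with a fall of at least 2-fold, as were 15.2%. The median log2 fold change (baicalein over control) of the 8 genes was 0.88, beside 0.00 (0.002) over all tested genes. Levels below are CPM (counts divided by the size of the library) scaled by edgeR's TMM factors, with mean ± SD and n = 2 libraries per group.

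**Figure D1:**
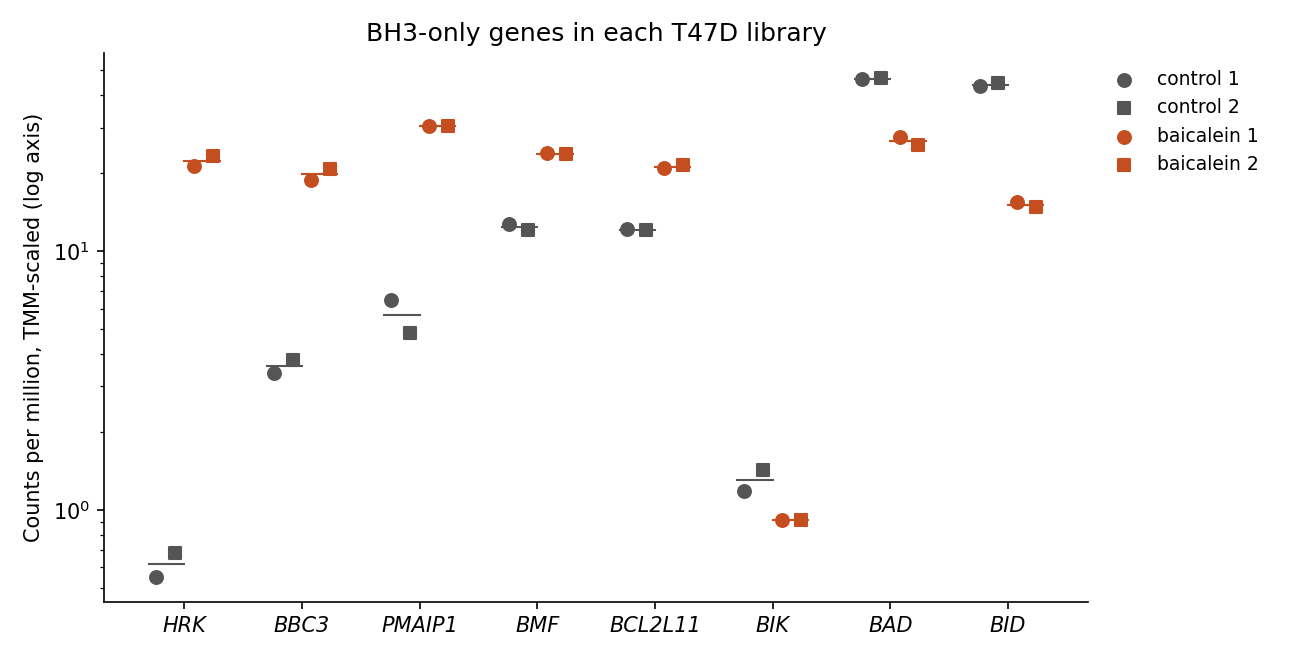
TMM-scaled CPM (log axis) of each BH3-only gene in the 4 libraries, ordered by fold change; grey marks are controls, orange marks baicalein, circles replicate 1, squares replicate 2, and short lines the group means. The groups do not overlap for any of the 8 genes, as for 86.9% of all tested genes. HRK moves from below 1 CPM to 21.3 and 23.4 CPM.

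Total counts ranged from 38597207 to 56732569 per library, so that 3 counts, the limit for a gene with no reads, stood for 0.0529 to 0.0777 CPM. This limit covers counting error only. The labels do not state that replicates were grown as separate cultures, and the p-values then describe the spread between these libraries, which can be technical. All 8 luminal markers fixed for the cell type check (ESR1, PGR, GATA3, FOXA1, KRT8, KRT18, KRT19 and EPCAM) were expressed, with a summed level of 12330 to 13610 CPM in controls and 6238 to 6333 CPM after baicalein. Of these, 7 were lower, as were 37.6% of all tested genes, and EPCAM did not pass. Among 5 fibroblast markers COL1A1 made up nearly all of a summed level of 90.4 to 101 CPM in controls and 141 to 151 CPM after baicalein, COL1A2 had 0 to 5 counts per library, and COL3A1 and DCN had no row in the table. The 5 immune markers summed to at most 1.72 CPM, and none of 3 endothelial markers had a row. The part of these marker shifts in the results below was not tested. In bulk RNA, fewer cells of a type and less RNA per cell cannot be told apart.

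The largest rises were in HRK, BBC3 and PMAIP1. HRK (ENSG00000135116, chromosome 12, positions 116856144 to 116881441 of GRCh38), which codes for a small protein that binds BCL2 and BCL2L1 and is best known from neurons, had 26 counts in control 1 and 32 in control 2, against 1164 in baicalein 1 and 873 in baicalein 2. Scaled for depth these were 0.550 and 0.681 CPM against 21.3 and 23.4 CPM. The gene was thus near silent in both controls and moderately expressed in both treated libraries. The log2 fold change was 5.17 (SE 0.13, adjusted p = 1.18e-19), which placed HRK at rank 93 among the rises of 18369 tested genes.

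BBC3 (ENSG00000105327, chromosome 19, positions 47220822 to 47232766) codes for PUMA, which binds all main guardians and is a classical p53 target. Its controls stood at 3.39 and 3.79 CPM and its treated libraries at 18.8 and 20.8 CPM. Both treated values lay well above both controls, and the log2 fold change was 2.46 (SE 0.10, adjusted p = 3.77e-16).

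PMAIP1 (ENSG00000141682, chromosome 18, positions 59899948 to 59904306) codes for NOXA, a partner of MCL1. Its level was 6.48 CPM in control 1 and 4.85 CPM in control 2, and 30.6 and 30.5 CPM in the treated libraries. The controls differed from each other more than the treated libraries did, at 5.66 ± 1.15 CPM against 30.5 ± 0.0695 CPM, and the groups remained far apart. The log2 fold change was 2.43 (SE 0.09, adjusted p = 5.81e-16), which was 2.65 without control 1 and 2.24 without control 2. BBC3 and PMAIP1 held ranks 492 and 504 among all rises.

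BCL2L11 and BMF code for BIM and BMF, which are known to be tethered to motor complexes of the cytoskeleton through dynein light chains. BCL2L11 (ENSG00000153094, chromosome 2, positions 111119378 to 111168447) had 12.2 and 12.1 CPM in the controls and 20.9 and 21.5 CPM after baicalein, so its log2 fold change was 0.81 (SE 0.07) with adjusted p = 9.93e-10. BMF (ENSG00000104081, chromosome 15, positions 40087890 to 40108892) had 12.7 and 12.04 CPM in the controls and 23.9 and 23.8 CPM after baicalein, so its log2 fold change was 0.95 (SE 0.07) with adjusted p = 4.49e-11. The 2 genes thus started from like CPM values and ended at like values, and each group was tight. Their rises were moderate for these data, at ranks 3075 for BCL2L11 and 2475 for BMF. The genes of their dynein light chain partners, named here after their values were seen, were lower. DYNLL1 fell from 168 ± 11.8 to 91.9 ± 0.489 CPM and DYNLL2 from 253 ± 5.08 to 207 ± 1.69 CPM.

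BID, BAD and BIK were lower. BID (ENSG00000015475, chromosome 22, positions 17734138 to 17774770), whose protein is activated by cleavage, for example by the caspase that death receptors switch on, had 43.3 and 44.5 CPM in the controls, against 15.5 and 14.8 CPM with baicalein. It was among the higher-expressed BH3-only genes in both controls and lost about the same amount in both treated libraries. The log2 fold change was -1.53 (SE 0.06, adjusted p = 2.99e-16), at rank 1498 among the falls. CASP8, which codes for that caspase and was also named after its values were seen, rose from 15.6 ± 0.0360 to 29.6 ± 0.443 CPM.

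BAD (ENSG00000002330, chromosome 11, positions 64269830 to 64284704), whose protein is held inactive by phosphorylation downstream of growth factor kinases, had 46.2 and 46.7 CPM in the controls and 27.6 and 25.8 CPM after baicalein. The gap between the groups was far larger than the gap within either group (log2 fold change -0.79, SE 0.06, adjusted p = 1.05e-11).

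BIK (ENSG00000100290, chromosome 22, positions 43110748 to 43129712), which codes for a BH3-only protein of the endoplasmic reticulum, had the fewest counts in total, although HRK had fewer in both controls. Control 1 and 2 held 56 and 67 of its counts, and baicalein 1 and 2 held 50 and 34, or 1.19 and 1.42 CPM against 0.914 and 0.913 CPM. The groups did not overlap, but the log2 fold change of -0.51 (SE 0.23) only just passed (adjusted p = 0.0486). The call was lost in 7 of 13 alternatives, among them DESeq2 (adjusted p = 0.256), limma-voom (adjusted p = 0.0578) and the fits without control 2 (adjusted p = 0.275), baicalein 1 (adjusted p = 0.147) or baicalein 2 (adjusted p = 0.125). Over all of these alternatives the adjusted p of BIK ranged from 0.0201 to 0.681, so its fall is uncertain. The other 7 genes kept their direction and their call under all 13 alternatives run.

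**Figure D2:**
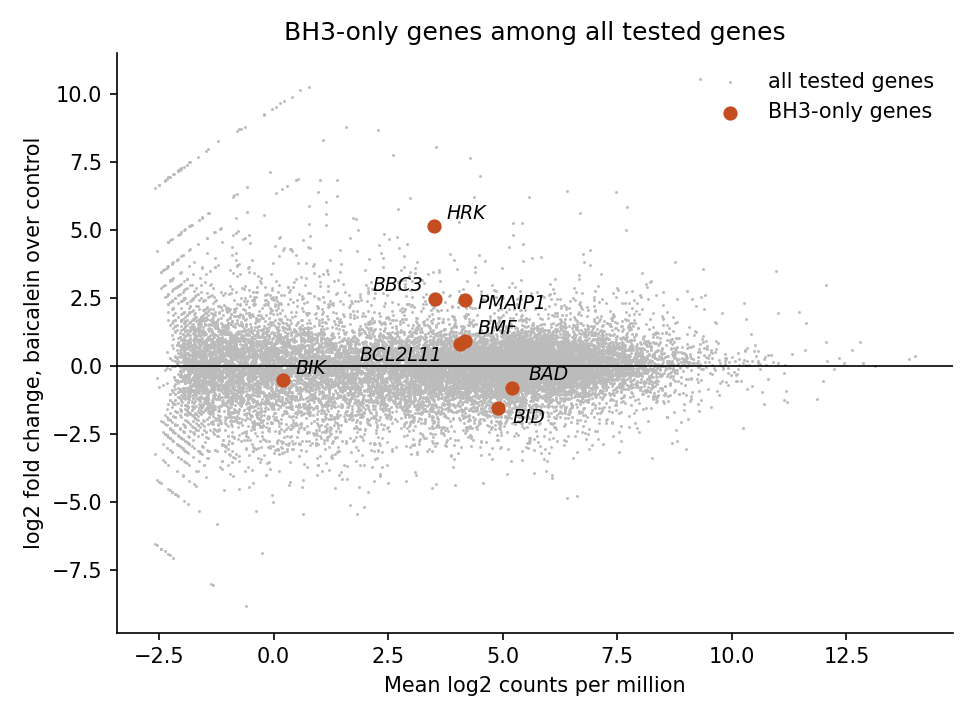
Log2 fold change (baicalein over control) against mean log2 CPM for all 18369 tested genes in grey, with the 8 BH3-only genes in orange. HRK stands at 5.17, BBC3 and PMAIP1 near 2.4, and BIK lies at the lowest mean level of the 8.

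For 5 of the 8 genes both treated libraries lay above both controls, as for 43.4% of all tested genes, and for the other 3 both lay below, as for 43.5%. The groups did not overlap for 86.9% of all tested genes.

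Exons of 4 members overlap those of other annotated genes, and the sources used here do not say whether reads were counted by strand. BAD shares 404 of its 1708 exon bases with GPR137 on the opposite strand, and GPR137 fell as well (log2 fold change -1.11, SE 0.06, adjusted p = 5.15e-14). BCL2L11 shares 727 of its 6658 exon bases with the non-coding gene MIR4435-2HG on the opposite strand, which rose (log2 fold change 0.94, SE 0.11, adjusted p = 3.97e-08). The part of these overlaps in the values of BAD and BCL2L11 was not tested. The other overlaps were of BBC3 with the microRNA genes MIR3190 and MIR3191 (80 and 76 bases) and of BMF with BMF-AS1 (461 bases), none of which had a row in the table.

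To set the genes beside each other, counts were divided by exon length, as CPM per kilobase of the union of GENCODE 29 exons. In untreated cells the sum over the 8 genes was 46.3 and 46.4 in control 1 and 2, and BAD and BID made up most of it. BAD alone accounted for 58.8% ± 0.375 and BID for 21.3% ± 0.375 of this sum, whereas HRK accounted for 0.19% ± 0.0287. After baicalein the sum was 50.9 and 50.6, and it was spread over more genes. BAD accounted for 30.8% ± 1.39, PMAIP1 for 26.9% ± 0.0393, BBC3 for 12.3% ± 0.947, BMF for 8.63% ± 0.0121, BID for 6.72% ± 0.184, HRK for 6.43% ± 0.463 and BCL2L11 for 6.28% ± 0.132. The makeup of the BH3-only transcripts therefore shifted far more than their total.

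The ratio of the total, baicalein over control, was 1.095 on this scale. It was 1.01 with the length of the longest coding transcript and 1.02 with library totals in place of TMM factors, both tried after the data were seen. The small rise of the total thus shrank under both alternatives, and it was not tested.

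**Figure D3:**
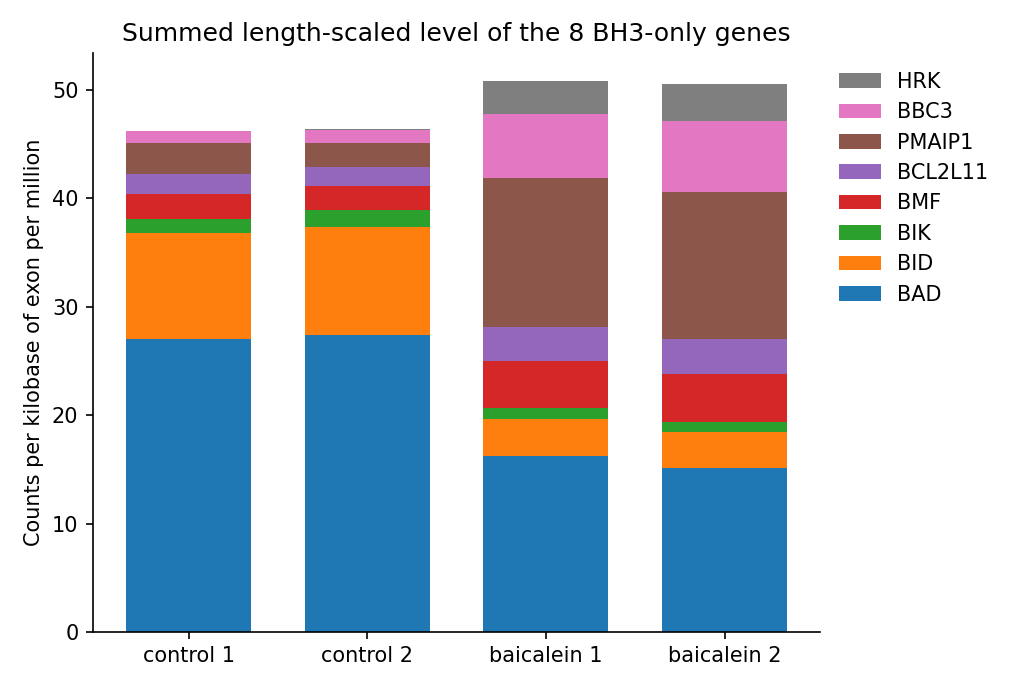
Stacked length-scaled levels (CPM per kilobase of exon) of the 8 BH3-only genes in each library. BAD and BID fill most of the bars of both controls, PMAIP1, BBC3 and HRK take much larger segments in both baicalein bars, and the bar heights differ little, from 46.3 to 50.9.

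The order of the length-scaled levels also changed. In the controls BAD was highest (27.1 and 27.4 CPM per kilobase), followed by BID (9.75 and 10.02). PMAIP1 (2.90 and 2.17) and BMF (2.33 and 2.21) came next and overlapped each other. BCL2L11 (1.83 and 1.81), BIK (1.24 and 1.495) and BBC3 (1.07 and 1.19) followed without overlap between neighbours, and HRK was lowest (0.0803 and 0.0993). The levels thus spread widely in untreated cells, BAD exceeding HRK 303-fold. After baicalein BAD was still highest (16.2 and 15.1), but PMAIP1 (13.7 and 13.6) stood just below it, then BBC3 (5.91 and 6.55) and BMF (4.39 and 4.36). BID (3.48 and 3.33) overlapped HRK (3.11 and 3.42), and HRK overlapped BCL2L11 (3.15 and 3.22). BIK was lowest (0.959 and 0.958), and the highest gene exceeded the lowest 16.3-fold. With the length of the longest coding transcript BIK came below BBC3 in the controls, and BID came above BMF after baicalein.

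The tested guardian and effector genes had log2 fold changes between -0.38 and 0.80. Of 6 guardian genes 4 were tested, 2 higher and 1 lower, in data where 75.0% of all tested genes were called, and BCL2A1 and BCL2L10 had no row in the table. MCL1, the partner of NOXA, had 290 and 294 CPM in the controls and 380 and 389 CPM after baicalein, which made a log2 fold change of 0.40 (SE 0.04) with adjusted p = 1.33e-08. BCL2L2 (BCL-w) rose from 50.1 ± 0.554 to 87.0 ± 0.344 CPM, and BCL2L1, the partner of HRK and BAD, fell from 171 ± 5.30 to 143 ± 0.194 CPM. BCL2 was low, at 1.91 and 2.08 CPM in the controls and 1.499 and 1.584 CPM after baicalein, and did not pass (log2 fold change -0.38, SE 0.18, adjusted p = 0.067).

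Of the 3 effector genes BAX rose from 16.6 ± 0.985 to 25.0 ± 0.613 CPM and BOK fell from 33.8 ± 1.52 to 26.3 ± 1.29 CPM. BAK1 overlapped between groups, at 32.9 and 34.8 CPM in the controls and 31.6 and 33.8 CPM after baicalein (log2 fold change -0.06, adjusted p = 0.388). With library totals alone as the scaling, a second guardian and a second effector gene were called lower. Under that scaling 42.1% of all tested genes were lower and 32.3% higher. The genes of atypical BH3 proteins, known for mitophagy or autophagy, were 3 higher and 0 lower of 5 tested. Of all tested genes 37.4% were higher and 37.6% lower in the main fit. With library totals alone, 2 of the atypical genes were called higher, beside 32.3% of all tested genes. BNIP3 rose from 27.9 ± 1.17 to 71.7 ± 3.71 CPM and BNIP3L from 53.5 ± 0.860 to 120.6 ± 6.51 CPM. AMBRA1 had a log2 fold change of 0.19, and HUWE1 did not pass (log2 fold change 0.03, adjusted p = 0.46).

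**Figure D4:**
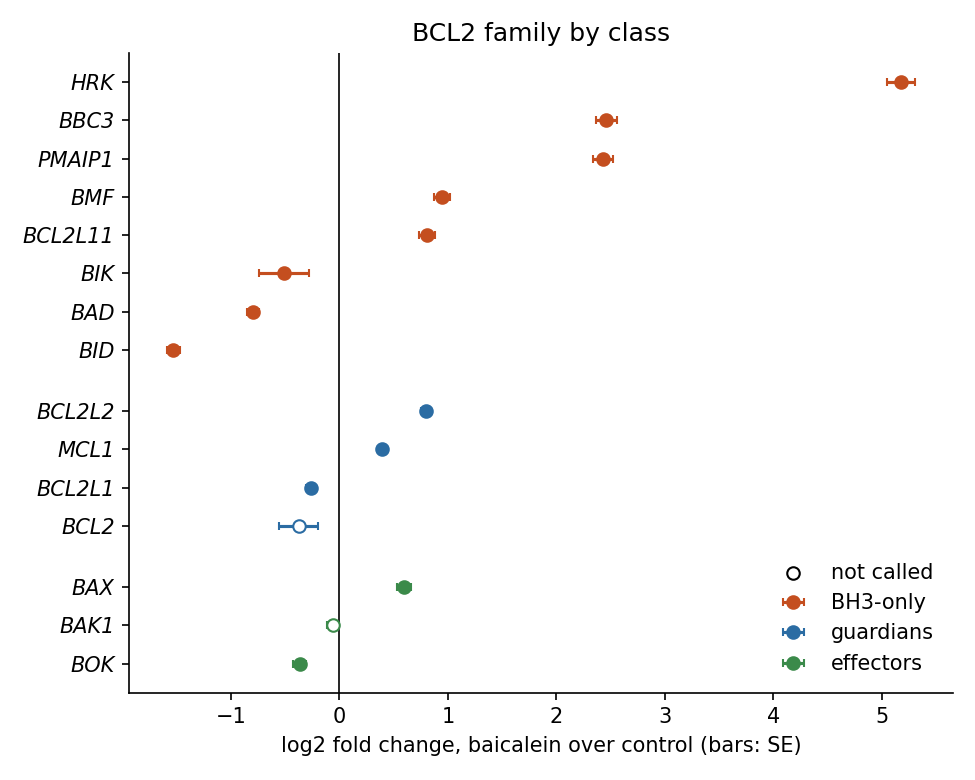
Log2 fold change (baicalein over control, bars show the SE) of the BH3-only genes, the 4 tested guardian genes and the 3 effector genes, with open marks for genes that did not pass. The guardians and effectors lie between -0.38 and 0.80, and the BH3-only genes between -1.53 and 5.17.

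Transcription factors and regulators known to act on BH3-only genes went both ways. Of 16 listed, 15 were tested, and 11 were higher and 4 lower, where 37.4% of all tested genes were higher and 37.6% lower (median log2 fold change 0.68, range -3.86 to 5.02). ATF3 rose from 14.2 ± 0.0915 to 205 ± 6.61 CPM, CEBPB from 71.1 ± 0.427 to 439 ± 9.38 CPM and TRIB3, which codes for a pseudokinase induced by ATF4 and CHOP, from 62.1 ± 3.80 to 535 ± 4.93 CPM. E2F1, known as an activator of several BH3-only genes, fell from 114 ± 4.83 to 7.88 ± 0.176 CPM.

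Genes with the pattern most like HRK were found by the distance between log2 CPM values centred on the control mean, over the 4 libraries. The nearest were AKR1C3 (distance 0.05), FGF21 (0.11) and DDIT3 (0.20). DDIT3, which codes for the stress factor CHOP, had 12.1 and 12.7 CPM in the controls and 372 and 434 CPM after baicalein, a log2 fold change of 5.02 (SE 0.08) beside 5.17 for HRK. FGF21 had 2 and 3 counts in the controls and 170 and 135 after baicalein, and AKR1C3, whose reads may be shared with near-identical AKR1C genes, had 6 and 8 against 346 and 254. The genes nearest to BID were EFNA3, SEPTIN8 and HUNK, at distances of 0.02 each, with log2 fold changes of -1.53, -1.53 and -1.54. With 2 groups of 2 libraries, such likeness rests mostly on the size of 1 difference. For genes with few control counts it also depends on the prior count of 2 in the log2 CPM. Of the 3 genes nearest to HRK, DDIT3 was the farthest by distance and the closest by fitted log2 fold change (AKR1C3 5.44 and FGF21 5.91). Other tested genes lay between HRK and DDIT3 by fitted change, at ranks 93 and 99 among all rises.

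The target lists of these factors, chosen with earlier results of these data known, are given as counts beside the same background of 37.4% higher and 37.6% lower. All 10 tested ATF4 and CHOP targets were higher (median log2 fold change 2.81), and 3 of them, ATF3, TRIB3 and DDIT3, are also in the list of factors. PPP1R15A had a log2 fold change of 3.72, and DDIT4 rose from 24.8 ± 0.0514 to 260 ± 7.55 CPM. Of 11 p53 targets 8 were higher and 2 lower (median 0.71). The log2 fold changes were 3.42 for the cell cycle inhibitor gene CDKN1A, 2.54 for the death receptor gene TNFRSF10B, 1.49 for RRM2B and 1.08 for ZMAT3. Of 8 FOXO targets 6 were higher and 1 lower (median 0.84), with log2 fold changes of 2.17 for IRS2, 1.84 for TXNIP, 1.79 for TSC22D3 and 0.98 for CCNG2.

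**Figure D5:**
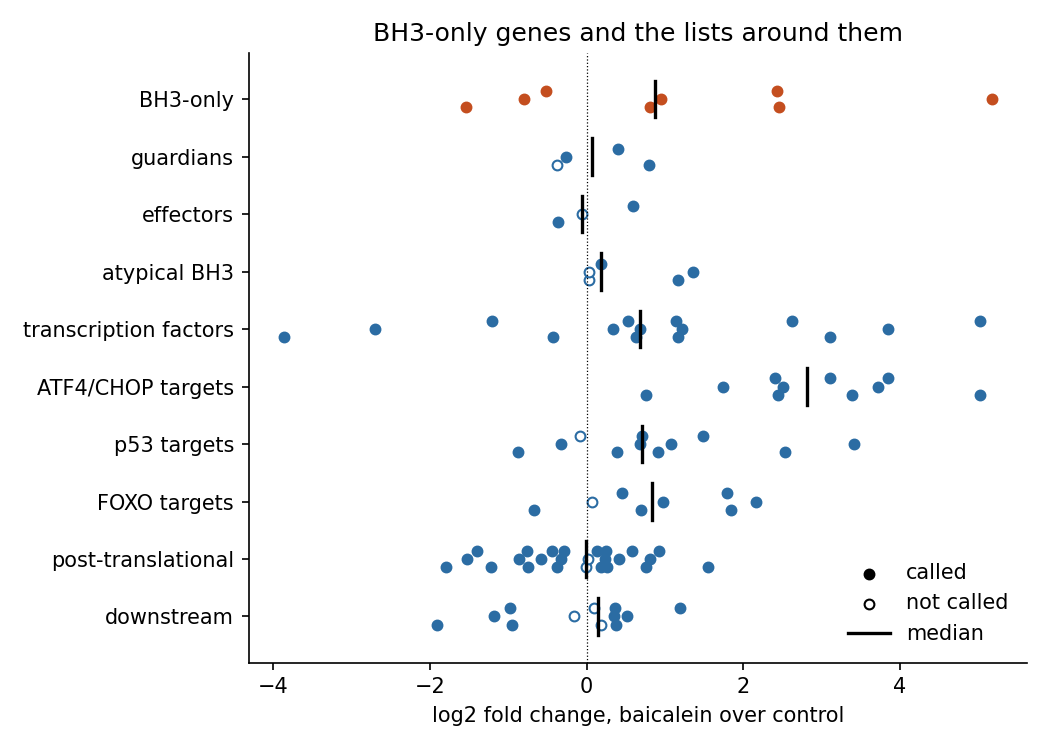
Log2 fold changes (baicalein over control) of the BH3-only genes and of 9 lists of related genes; filled marks passed the test, open marks did not, and black bars are list medians. The ATF4 and CHOP targets have the highest median, 2.81, and the BH3-only genes spread on both sides of 0 around a median of 0.88.

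Promoter windows from RefSeq (GRCh38.p14, 250 bases before to 50 bases after the annotated start) were found for 7 of the 8 genes and searched on both strands for motifs of such factors. HRK is shown because it had the largest rise and the only match to the C/EBP-ATF response element core (TGATGNAA) among the members. Its match, in capitals, begins 75 bases upstream of the start, and 3.62% of 35116 windows of all genes hold this motif.
HRK upstream of the start (chr12:116881494-116881531, minus strand): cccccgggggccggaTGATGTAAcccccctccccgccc

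A forkhead site (GTAAACA, in 3.42% of all windows) began 223 bases upstream of the RefSeq start in BCL2L11. It is shown because FOXO proteins are known regulators of that gene. The GENCODE span of BCL2L11 given above starts earlier, at position 111119378, so the site is upstream of the RefSeq start only and lies inside that span. The forkhead site overlaps a match to the xenobiotic response element core (TNGCGTG, in 5.51% of windows) on the other strand.
BCL2L11 upstream of the start (chr2:111120676-111120712, plus strand): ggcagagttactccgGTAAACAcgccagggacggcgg

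An E-box (CACGTG, in 7.26% of windows) was in the window of BBC3 and in 2 of the 5 windows of BID. Those 2 windows also lie inside the GENCODE span of BID given above. An antioxidant response element core (TGACNNNGC, in 13.4% of windows) was in those of HRK and BAD. No window of these genes held the cyclic AMP response element (TGACGTCA, 1.85%), the E2F site (TTTCGCGC, 0.52%) or the p53 half-site (6.63%), and PMAIP1 and BMF had no match to any motif searched. These matches describe letters in the reference sequence only, and no binding was measured.

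Genes whose proteins modify or hold BH3-only proteins went both ways, with 11 higher and 12 lower of 25 tested, also beside 75.0% called among all genes (median log2 fold change 0.00). AKT1, which codes for a kinase that phosphorylates BAD, fell from 447 ± 10.1 to 155 ± 0.0507 CPM. PIM3, of another kinase family that phosphorylates BAD, rose from 50.3 ± 0.975 to 147.5 ± 1.495 CPM. Within each family the listed genes went both ways. AKT2 was higher (log2 fold change 0.26), and PIM1 and PIM2 were lower (-1.79 and -0.58). CAPN1 and CASP2, which code for proteases able to cleave the BID protein, were lower, at log2 fold changes of -1.22 and -1.40. Downstream of the mitochondria 5 of 12 tested genes were higher and 4 lower (median 0.14). The caspase inhibitor gene XIAP rose from 33.6 ± 0.715 to 76.5 ± 0.966 CPM, and BIRC5 and APAF1, which codes for the apoptosome scaffold, had log2 fold changes of -1.91 and -0.95. Neither protein levels nor cell death were measured.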

How the data were processed

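The authors deposited 1 table of whole-number counts per gene for the 4 libraries, not scaled to library size. Per the submitters' processing notes, STAR 2.7.8a, RSEM 1.3.3, FastQC 0.11.8, cutadapt 2.3 and DESeq2 1.34 were named with GRCh38, without their order or role. The sources used here do not give the annotation release, the use of strand or whether RSEM estimates were rounded. The smallest row total was 10, and the table held 0 columns of other samples. Of 20515 rows, 17419 had a symbol.

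The test was edgeR 4.0.16 under R 4.3.3 (robust quasi-likelihood fit, TMM factors, filterByExpr with a minimum count of 10 and total of 15), without covariates, over 18369 genes. The SE is the size of the log2 fold change over the square root of F. Exon lengths and coordinates came from GENCODE 29, promoters from RefSeq. The script was tested on simulated data. Alternatives were other scalings and filters, DESeq2 1.42.0, limma-voom (limma 3.58.1), leaving out each library, the replicate number as a block, and a threshold of 1.5-fold in the test. Members and lists were chosen with earlier results of these data known. All members, guardians and effectors were named, and of other lists the 4 genes with the smallest adjusted p, plus the 3 genes nearest in pattern to the largest rise and fall (log2 CPM with a prior count of 2). DDIT3 came in that way. DYNLL1, DYNLL2, CASP8, AKT2, PIM1 and PIM2 fall outside the rule and were chosen after their values were seen. Some genes that the rule names are withheld and not reported. GPR137, MIR4435-2HG and other overlapping genes were named for their position. Replicates differed by more than sampling noise (mean chi-square per gene 9.61 in controls and 2.43 in treated libraries).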

Additional observations from a re-analysis of the deposited data

How the results depend on the processing

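Of 104 recomputed log2 fold changes of the 8 genes, 97 kept direction and call, and the 7 that did not were all of BIK, with the direction kept. HRK ranged from 5.02 to 5.34, BBC3 from 2.36 to 2.55, PMAIP1 from 2.24 to 2.65, BMF from 0.84 to 0.98, BCL2L11 from 0.70 to 0.83, BAD from -0.90 to -0.74, BID from -1.64 to -1.50 and BIK from -0.64 to -0.37. With all libraries kept, the count of BH3-only genes was 5 higher under every alternative run, and 3 or 2 lower. Under these alternatives, apart from the 1.5-fold threshold, 32.3% to 41.1% of all tested genes were higher and 32.7% to 42.1% lower. Against a 1.5-fold change, 3090 genes (16.8% of those tested) were higher and 3581 (19.5%) lower in all, 5 and 2 of them BH3-only. Library totals alone moved the median log2 fold change of all genes from 0.00 (0.002) to -0.10. Counts of the other lists were recomputed only with DESeq2 size factors, library totals alone and the replicate block. Of these 54 counts, 52 stayed within 1.5 times. With the replicate block, 6894 genes were higher and 6909 lower, and the adjusted p of BIK was 0.054. No other call of the 8 genes changed with the block. Same-numbered deviations correlated at 0.01 over genes, so the numbers are not shown to pair the libraries. With 1 library left out, the lone library of that group was taken to have the spread of the other group. Counts were low for BIK, with 34 to 67 per library, and for HRK in the controls, with 26 and 32.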
